A study of Mus musculus with 12 samples.

Results

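Nucleotides, the folate-bound 1-carbon units that build them, and polyamines are made by a connected set of enzymes that MYC proteins are known to act on. The set described here holds 37 genes, chosen by their enzymatic role: 4 of pyrimidine synthesis, 8 of purine synthesis, 3 of the branch to guanine nucleotides, 7 that make or process deoxynucleotides, 6 of folate 1-carbon metabolism, 3 of serine synthesis, 4 of polyamine synthesis and 2 nucleoside transporters. Each gene was read at 1 array probe set, the one with a single gene symbol and the highest mean over the 12 tumors, and 34 of the 37 had such a probe set, among 18193 genes read in the same way. Impdh2, Amd1 and Sms had none and were not analysed here.

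RNA came from untreated primary tumors of LSL-MYCN;hGFAP-Cre mice, which carry human MYCN and luciferase behind a floxed stop cassette that Cre recombinase, driven by the human GFAP promoter, removes in GFAP-positive cells. The 9 pancreatic tumors (1 to 5 and 9 to 12) were set against 3 pituitary tumors (6, 7 and 8), which the labels place in the brain and the paper at the pituitary gland, with 1 Affymetrix mouse oligonucleotide array per tumor. Both groups carry the same alleles on a mixed strain background and received no treatment, and no source used here gives the age of each animal. Some mice had tumors at both sites, so that 2 arrays can come from 1 mouse. Which arrays do is not stated, and the tests treat the tumors as independent samples.

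Values are log2 signals as deposited, normalized between arrays. Differences between the sites are pancreatic minus pituitary tumors on this scale, given with their standard error (SE) from limma, and a gene was called when its p-value, adjusted after Benjamini-Hochberg over 45037 probe sets, was under 0.05. Signals of different probe sets are not on 1 scale, so levels of different genes were not set against each other. The number of pituitary arrays limits the precision of all differences. In bulk tumor RNA, fewer cells of a type and less RNA per cell cannot be told apart.

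The site labels were read against marker genes. The mean log2 signal of 6 islet genes was 8.85 to 12.84 in pancreatic tumors and 6.54 to 7.12 in pituitary tumors, while that of 9 anterior pituitary genes was 4.90 to 5.48 in pancreatic tumors and 9.62 to 11.58 in pituitary tumors. Pancreatic tumor 2 stood apart. Its mean over 6 neuroendocrine genes was 8.88, against 11.94 to 12.92 in the other 8 pancreatic tumors, and its mean over 4 liver genes (Alb, Ttr, Apoa1, Serpina1c) was 14.77. The liver mean was 13.17 and 13.33 in pancreatic tumors 3 and 4, 8.01 to 10.73 in the other 6, and 5.95 to 7.70 in pituitary tumors. The mean of 8 acinar genes, which mark the enzyme-secreting cells of the pancreas, was 11.07, 10.28 and 9.12 in pancreatic tumors 3, 4 and 10, 5.79 to 7.79 in the other 6, and 5.01 to 5.59 in pituitary tumors. The mean of 7 glial genes was 11.26 and 11.02 in pituitary tumors 6 and 8 and 7.40 in pituitary tumor 7, against 5.69 to 6.92 in the pancreatic tumors. Neuronal means followed the same order. In tumor 7, only Slc1a2 of the glial genes exceeded the pancreatic range (9.26, against 3.80 to 7.14). Slc1a3 (5.36) and Gfap (5.64) were below that range, and the other glial genes lay within it. Of the neuronal genes, only Slc17a6 exceeded it in tumor 7 (8.53, against 4.04 to 5.41). The arrays of pancreatic tumors 10, 11 and 12 had a mean signal of 5.97 to 5.98, against 6.06 to 6.10 in the other 9. Pancreatic tumors 3 and 4 were the most alike (Pearson's r of 0.985 across probe sets), and no pair of arrays was identical.

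As background, purines are built stepwise on a ribose phosphate (PRPP), whereas pyrimidines are built as a ring first and then joined to PRPP. Serine donates 1-carbon units to folate, partly in mitochondria and partly in the cytosol, and these units enter the purine ring and the methyl group of thymidylate. MYC proteins pair with MAX and bind E-boxes, of which CACGTG is the preferred form, and genes of nucleotide synthesis, together with Odc1 at the entry to polyamines, are textbook MYC targets.

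Promoter sequences from RefSeq (build GRCm38.p6), reaching from 250 bases before to 50 bases after an annotated start, were found for 34 of the 37 genes, and were missing for Dhodh, Srm and Pfas. The letters CACGTG, which read the same on both strands, occurred in a promoter of 7 of these 34 genes (20.6%), against 8.09% of the 27025 genes of the table. Among genes measured on the array, the share was 5 of 31 members (16.1%) against 10.2% of 14452. The variant CACGCG, searched on both strands, was found in 6 of 31 measured members (19.4%) and in 16.2% of measured genes. No test was made on these shares, and a match describes the letters and not a bound site. The 5 measured members with CACGTG are Atic, Nme1, Paics, Slc29a1 and Tyms. They are shown to place the motif (in capitals) within 20 bases on each side, 5′ to 3′ on the strand of the gene. Paics, shown at full length, has it 203 bases before the start, and Slc29a1 75, Tyms 61 and Atic 7 bases before. Nme1 has it in the promoters of 2 annotated starts, 29 and 18 bases before them.
Atic window, chr1:71557129-71557174, plus strand: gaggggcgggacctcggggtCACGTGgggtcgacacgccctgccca
Nme1 window, chr11:93968029-93968074, minus strand: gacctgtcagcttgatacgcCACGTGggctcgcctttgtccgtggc
Nme1 window, chr11:93968265-93968310, minus strand: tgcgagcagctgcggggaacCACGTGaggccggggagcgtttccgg
Slc29a1 window, chr17:45595296-45595341, minus strand: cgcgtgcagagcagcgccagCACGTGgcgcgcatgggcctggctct
Tyms window, chr5:30073661-30073706, minus strand: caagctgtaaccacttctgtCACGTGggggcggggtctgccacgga
Paics promoter, chr5:76951052-76951351, plus strand: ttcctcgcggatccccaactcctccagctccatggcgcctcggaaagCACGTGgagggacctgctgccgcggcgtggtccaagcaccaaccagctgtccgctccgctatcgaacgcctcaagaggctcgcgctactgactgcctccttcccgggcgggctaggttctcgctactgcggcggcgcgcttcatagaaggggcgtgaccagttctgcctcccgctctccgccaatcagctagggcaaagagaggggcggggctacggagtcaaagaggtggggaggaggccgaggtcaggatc
The promoters of Umps and Mthfd1l are printed because these were the 2 members called between the sites. Neither holds CACGTG or CACGCG on either strand within these 300 bases, so they are in lower case throughout.
Umps promoter, chr16:33966989-33967288, minus strand: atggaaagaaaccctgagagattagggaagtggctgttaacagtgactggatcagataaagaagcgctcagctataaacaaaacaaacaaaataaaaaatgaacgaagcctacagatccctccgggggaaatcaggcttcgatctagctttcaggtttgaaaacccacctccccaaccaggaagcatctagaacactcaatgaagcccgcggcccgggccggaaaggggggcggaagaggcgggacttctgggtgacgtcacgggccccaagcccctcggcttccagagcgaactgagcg
Mthfd1l promoter, chr10:3972825-3973124, plus strand: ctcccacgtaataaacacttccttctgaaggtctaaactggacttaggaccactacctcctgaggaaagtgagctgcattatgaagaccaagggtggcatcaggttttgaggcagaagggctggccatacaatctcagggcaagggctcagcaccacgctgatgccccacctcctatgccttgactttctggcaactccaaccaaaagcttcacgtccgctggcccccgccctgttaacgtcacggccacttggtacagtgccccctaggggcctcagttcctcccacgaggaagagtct

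Most of the set was well above the middle of the array in both kinds of tumor. Of the 34 members, 31 (91.2%) exceeded the array's median probe set in all 12 tumors, as 52.2% of all genes read in the same way did. The exceptions were Tyms (thymidylate synthase), which was at or below that median in all 12 tumors at each of its 4 probe sets, Slc29a2, which was so in 6 of 9 pancreatic and 3 of 3 pituitary tumors, and Tk1, in 1 of 9 pancreatic and 1 of 3 pituitary tumors. The Tyms values, at 3.42 to 3.92 in pancreatic tumors and between 3.48 and 3.75 in pituitary tumors, therefore give no level for this enzyme.

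**Figure D1:**
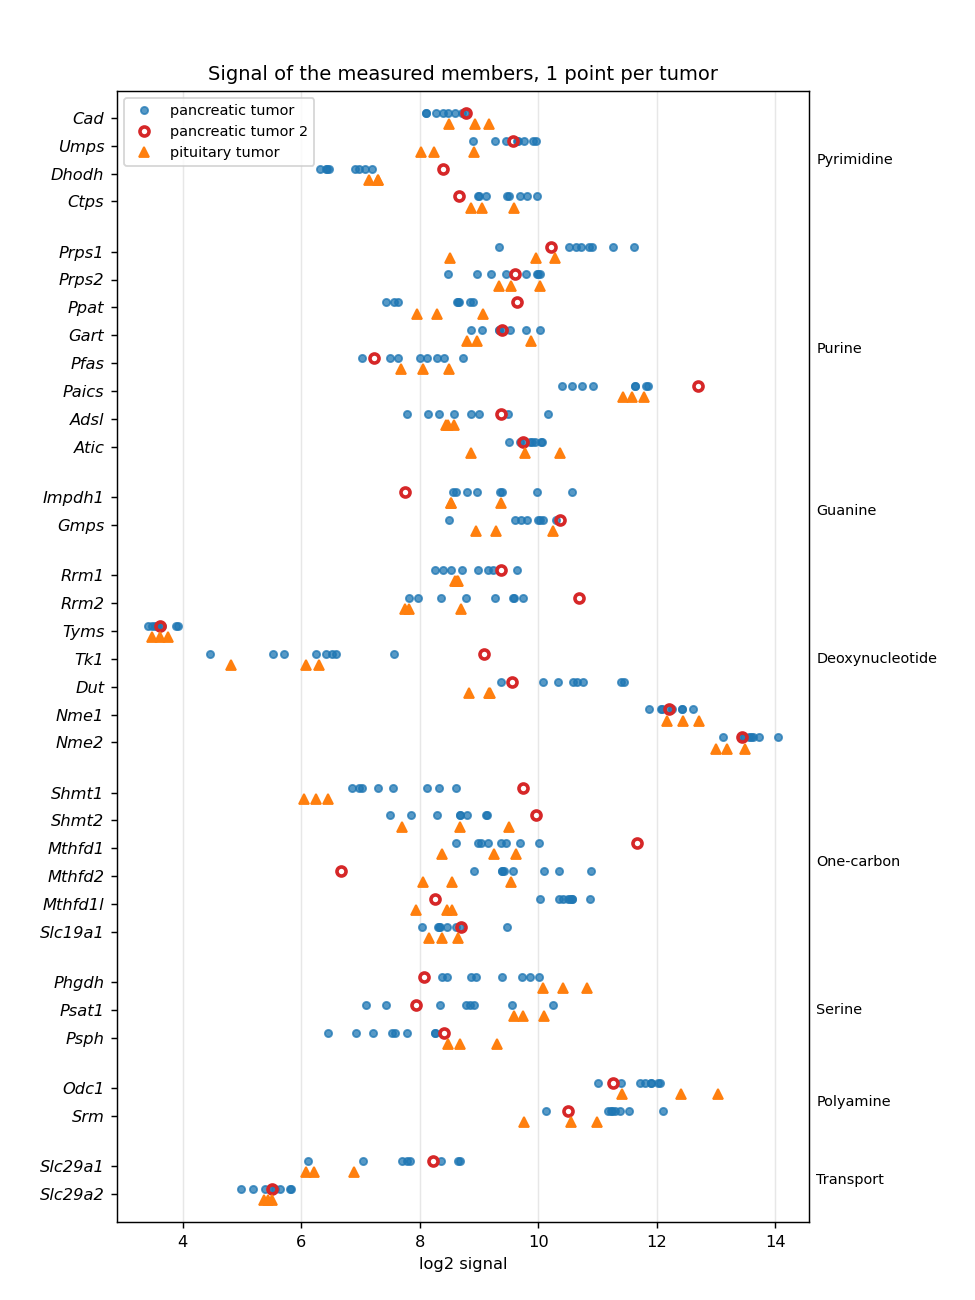
Log2 signal (x axis) of the 34 measured members (y axis, grouped by role), with 1 point per tumor: pancreatic tumors as blue circles, pancreatic tumor 2 as an open red circle and pituitary tumors as orange triangles. Tumor 2 lies at the edge of the pancreatic range for many genes, Mthfd1l among them (8.25 in tumor 2), and Tyms lies near the floor in all tumors.

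Between the sites, 2 members were called higher in pancreatic tumors, Umps and Mthfd1l, which is 2 of 34 against 1.63% of all genes. Of the members, 0 were called lower, against 4.29% of all genes. At an unadjusted p under 0.05, 6 members were higher and 3 were lower, where 9.53% and 14% of all genes were. The pancreatic mean was the higher one for 24 of 34 members (70.6%), against 53.1% of all genes, and the median difference was 0.20 over the members and 0.04 over all genes. The groups did not overlap for 4 members: Dut and Shmt1 were higher in every pancreatic tumor, and Phgdh and Psph were lower in every pancreatic tumor, where 4.21% and 5.21% of all genes did not overlap in these directions.

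**Figure D2:**
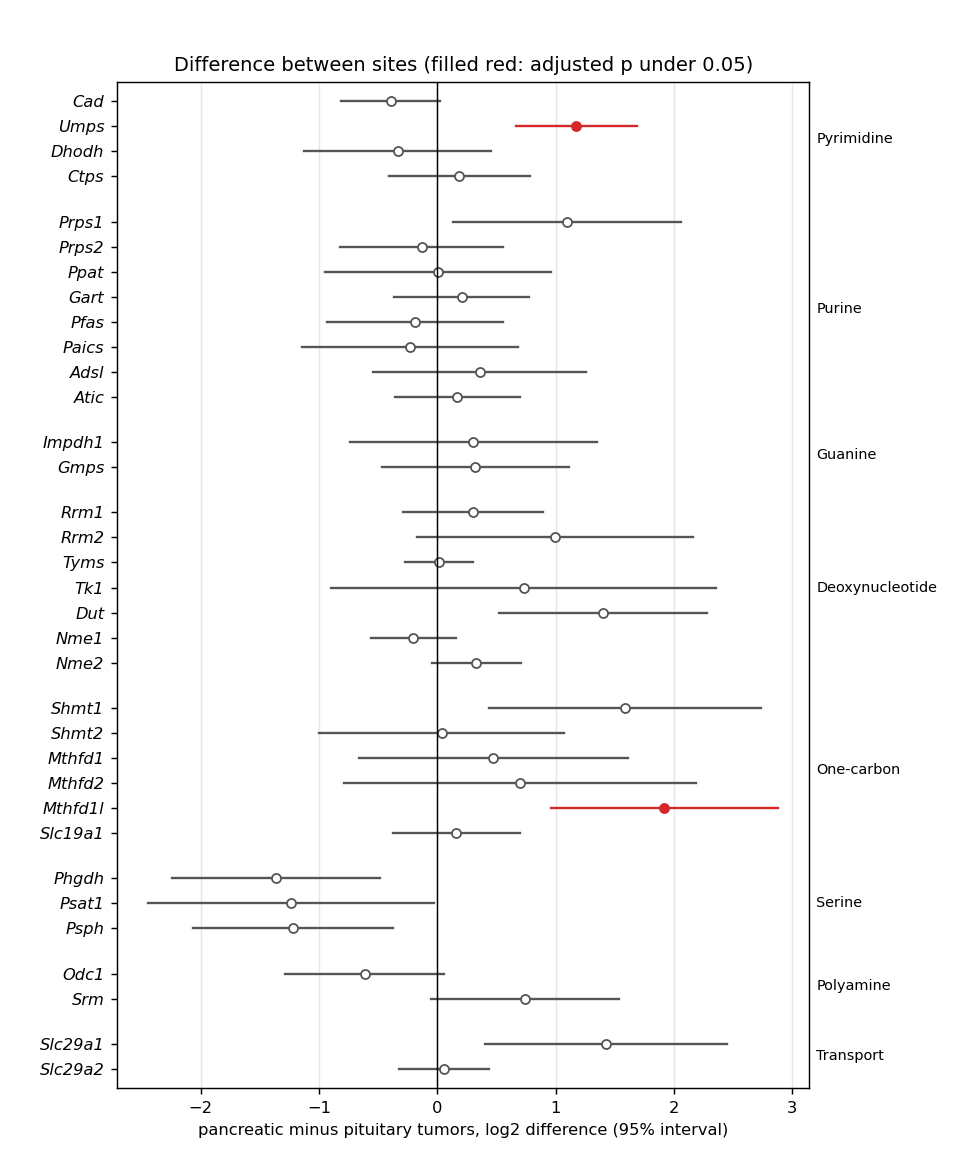
Difference in log2 signal (x axis, pancreatic minus pituitary tumors) for each measured member (y axis), as points with 95% intervals from limma, filled red where the adjusted p was under 0.05. Umps at 1.17 and Mthfd1l at 1.92 are the 2 filled points, and the 3 serine enzymes lie between -1.36 and -1.22.

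Pyrimidine synthesis was marked by Umps, the enzyme that makes UMP in the last steps of the pathway. Umps had signals of 8.90 to 9.96 (median 9.64) in the 9 pancreatic tumors, against 8.03, 8.91 and 8.25 in pituitary tumors 6, 7 and 8. The lowest pancreatic value, in tumor 5, met the highest pituitary value, in tumor 7, and the other 8 pancreatic tumors lay above all 3 pituitary tumors. The difference was 1.17 (SE 0.23, 95% interval 0.66 to 1.68, limma adjusted p = 0.0148), a 2.25-fold higher signal. A further Umps probe set gave 0.98 (adjusted p = 0.068), and the 2 others, one of them at or below the array median in all 12 tumors, gave 0.56 and 0.30. The call was lost without pituitary tumor 6 and without pituitary tumor 8. Without tumor 6 the difference was 0.99 (adjusted p = 0.110), without tumor 8 it was 1.10 (0.0877), and without both, which leaves 1 pituitary tumor assumed to vary like the others, it was 0.66 (0.878). Leaving out pancreatic tumors 2, 3 and 4 gave 1.08 (0.0583), and leaving out 10, 11 and 12 gave 1.17 (0.0897).

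The other steps of the pathway did not pass the test. Cad, the large enzyme that starts pyrimidine synthesis, had signals of 8.11 to 8.78 (median 8.47) in pancreatic tumors and 8.49, 9.17 and 8.94 in pituitary tumors. Its difference was -0.40 (SE 0.19, adjusted p = 0.286), while its other probe sets gave 0.49 and 0.40. The one at 0.40 was at or below the array median in all 12 tumors. The direction thus depends on the probe set. Dhodh, which oxidizes dihydroorotate at the inner mitochondrial membrane, had 6.32 to 8.40 (median 6.91) in pancreatic tumors, against 7.30, 7.14 and 7.29 in pituitary tumors. Tumor 2 held the highest Dhodh value, and the next pancreatic value was 7.20. Ctps, which converts UTP to CTP, differed by 0.19 (SE 0.27).

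Purine synthesis showed no call among its 8 measured members, with differences of -0.23 (Paics) to 1.10 (Prps1). Prps1, which makes PRPP, had 9.34 to 11.62 (median 10.72) in pancreatic tumors, against 10.28, 8.50 and 9.96 in pituitary tumors. Only pancreatic tumors 2 and 5 fell within the pituitary range, and the adjusted p of the difference was 0.196. Its isozyme Prps2 differed by -0.13 (95% interval -0.82 to 0.56), and for Prps1 the interval was 0.13 to 2.06. These intervals overlap, and the difference between the isozymes was not tested.

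Ppat, the amidotransferase of the committed purine step, and Paics, which acts further along, are neighbours on mouse chromosome 5 that are read in opposite directions and overlap at their 5′ ends. Neither passed the test between the sites (0.01, SE 0.44 for Ppat and -0.23, SE 0.42 for Paics), but both spread widely among the pancreatic tumors. Ppat was 9.64 in tumor 2, 8.63 to 8.89 in tumors 1, 3, 4, 5 and 9, and 7.43 to 7.63 in tumors 10, 11 and 12. Paics was 12.70 in tumor 2, 11.64 to 11.86 in tumors 1, 3, 4 and 9, and 10.39 to 10.92 in tumors 5, 10, 11 and 12. For both genes tumor 2 was highest and the tumors with the lower array mean were low, with tumor 5 low for Paics as well. Tumors 10, 11 and 12 lay below all other pancreatic tumors also for Mthfd1 (8.61 to 9.02 against 9.16 to 11.66), and above them for Mthfd2 (10.10 to 10.89 against 6.67 to 9.58) and Slc29a1 (8.36 to 8.68 against 6.11 to 8.22). How many of all genes separate these tumors in this way was not counted, so no trait of the members is read from it. The part of the array mean in these values was not tested.

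Later purine enzymes differed in how evenly they were expressed. Atic, which closes the purine ring, held 9.50 to 10.06 in the 9 pancreatic tumors, an SD of 0.18 that is larger than that of only 11.1% of all genes, against 8.86, 10.36 and 9.77 in pituitary tumors. Adsl, used both in the pathway and in making AMP, ran from 7.79 to 10.16 (median 8.87) in pancreatic tumors and was 8.43, 8.48 and 8.58 in pituitary tumors. Gart and Pfas, which act between Ppat and Paics, differed by 0.20 (SE 0.26) and -0.19 (SE 0.34). A further Gart probe set gave -0.78 (SE 0.26, adjusted p = 0.121), with every pancreatic tumor below every pituitary tumor, and the other 2 gave 0.075 and -0.0095, so the direction depends on the probe set here too. Of the 23 members with several probe sets, 8 had differences of both signs, among them Tyms, whose probe sets were all at or below the array median.

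In the guanine branch, Impdh1, which makes XMP from IMP, had 7.75 to 10.58 (median 8.97) in pancreatic tumors, against 8.52, 9.37 and 8.53 in pituitary tumors, and Gmps, which makes GMP from XMP, had 8.49 to 10.37 (median 10.00), against 8.95, 10.25 and 9.29. Neither passed the test (0.30, SE 0.48 and 0.32, SE 0.36). Gmps was the member whose probe sets disagreed most: the other 2 gave -1.61 (SE 0.40, adjusted p = 0.043) and -1.80 (SE 0.48, adjusted p = 0.055), with every pancreatic tumor below every pituitary tumor at both. The call at the first of them was lost on leaving out any of 9 of the 12 tumors. A direction for Gmps can therefore not be given from these arrays.

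Among the deoxynucleotide genes, Dut, which hydrolyses dUTP and so keeps uracil out of DNA, had 9.37 to 11.45 (median 10.58) in pancreatic tumors, against 9.18, 9.18 and 8.83 in pituitary tumors. Every pancreatic tumor was above every pituitary tumor, at a difference of 1.40 (SE 0.40, 95% interval 0.52 to 2.28) that missed the threshold (adjusted p = 0.0726). It was past it without pancreatic tumor 2 (1.52, 0.0377) or 5 (1.54, 0.0341). Over all fits with 1 tumor left out, the difference was 1.28 to 1.54 and its limma adjusted p 0.0341 to 0.283. Its other probe set gave 0.94 (adjusted p = 0.093).

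Rrm1 and Rrm2 encode the subunits of ribonucleotide reductase, which makes deoxynucleotides from ribonucleotides. Rrm2, the subunit that limits the enzyme in the cell cycle, had 7.81 to 10.68 (median 9.27) in pancreatic tumors, against 8.70, 7.83 and 7.75 in pituitary tumors, with a difference of 0.99 (SE 0.53, adjusted p = 0.335). Rrm1 had 8.26 to 9.64 (median 8.98) in pancreatic tumors and 8.64, 8.59 and 8.63 in pituitary tumors, which were close together. Rrm2b, the other small subunit and not a member, differed by -0.23 (SE 0.45).

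Tk1, the thymidine salvage kinase of the cytosol, had the widest spread of the set with tumor 2 included, with 4.46 (tumor 5) to 9.09 (tumor 2) in pancreatic tumors (median 6.42), against 6.30, 6.07 and 4.81 in pituitary tumors. The SD over pancreatic tumors was 1.31, above that of 94.5% of genes, and 0.91 without tumor 2, where that of Psat1 was wider (1.04). Its mitochondrial counterpart Tk2 differed by 0.05 (SE 0.39). The nucleoside diphosphate kinases Nme1 and Nme2 had differences of -0.20 (SE 0.17) and 0.33 (SE 0.17), neither called. Nme1 was read at a probe set of a class that can take up related transcripts, as were Rrm2, Shmt2, Odc1, Slc29a2 and Phgdh, so near-identical copies may share the signal of these 6 members. Counting further classes that can match several transcripts, 17 of the 34 members were read in this way, Cad and Ppat among them.

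Folate 1-carbon metabolism held the other called gene. Mthfd1l, which releases formate from mitochondrial folate, had 10.03 to 10.88 in 8 pancreatic tumors and 8.25 in tumor 2 (median of 9, 10.51), against 7.94, 8.46 and 8.55 in the pituitary tumors. All pancreatic tumors but tumor 2 were above the pituitary tumors by more than 1 log2 unit, and tumor 2 lay within the pituitary range. The difference was 1.92 (SE 0.44, 95% interval 0.96 to 2.88, adjusted p = 0.0289), a 3.78-fold higher signal. Without tumor 2 it was 2.17 (adjusted p = 4.92e-05). The call was lost without pituitary tumor 6 (1.73, 0.162), 7 (1.99, 0.0577) or 8 (2.03, 0.0955), and narrowly so without pancreatic tumor 4, 10, 11 or 12 (0.0512 to 0.0537). Without pancreatic tumors 10, 11 and 12 together it was 1.80 (0.149). The gene had 1 probe set, so a further reading was not at hand.

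Shmt1, the cytosolic enzyme that moves a carbon from serine to folate, had 6.86 to 9.74 (median 7.55) in pancreatic tumors, against 6.04, 6.45 and 6.25 in pituitary tumors. Every pancreatic tumor was higher, and the adjusted p of the difference, 1.59 (SE 0.53), was 0.118. All 4 of its probe sets gave a positive difference, of 1.06 to 1.59. Its mitochondrial isozyme Shmt2 had 7.49 to 9.96 (median 8.68) in pancreatic tumors, against 7.69, 9.51 and 8.68 in pituitary tumors, with a difference of 0.04 (95% interval -0.997 to 1.07). The interval for Shmt1 was 0.44 to 2.73, and the contrast of the isozymes was not tested.

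Mthfd1, the cytosolic enzyme that readies formate for purine synthesis, had 8.61 to 10.01 in 8 pancreatic tumors and 11.66 in tumor 2 (median of 9, 9.38), against 9.24, 8.37 and 9.63 in pituitary tumors. Mthfd2, the mitochondrial dehydrogenase upstream of Mthfd1l, had 8.91 to 10.89 in the same 8 tumors and 6.67 in tumor 2 (median of 9, 9.41), against 8.54, 9.53 and 8.05. Tumor 2 thus had the highest Mthfd1 and the lowest Mthfd2 of all 12 tumors. Neither gene passed the test between the sites (0.47, SE 0.52 and 0.70, SE 0.68), nor did the folate carrier Slc19a1 (0.16, SE 0.25) or the Mthfd2 homologue Mthfd2l (-0.50, SE 0.49), which is not a member.

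Tumor 2 was above all other pancreatic tumors in 11 members (32.4%, against 22.6% of all genes). It was below all in 5 (14.7%, against 19.8% of all genes). Among those above were the cytosolic 1-carbon enzymes (Shmt1 at 9.74 against 6.86 to 8.61 and Mthfd1 at 11.66 against 8.61 to 10.01), Shmt2, Dhodh, Ppat, Paics, Rrm2 and Tk1. The 5 below were Mthfd2, Mthfd1l, Ctps, Impdh1 and Phgdh. The liver mean of this tumor was 14.77, while tumors 3 and 4 had liver means of 13.17 and 13.33. In tumors 3 and 4 Mthfd2 was 9.58 and 9.38, within the range of the other 6 pancreatic tumors, and Mthfd1l was 10.88 and 10.57, at the top of the pancreatic tumors, with tumor 1 also at 10.57. The part of liver tissue in these values was not tested.

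**Figure D3:**
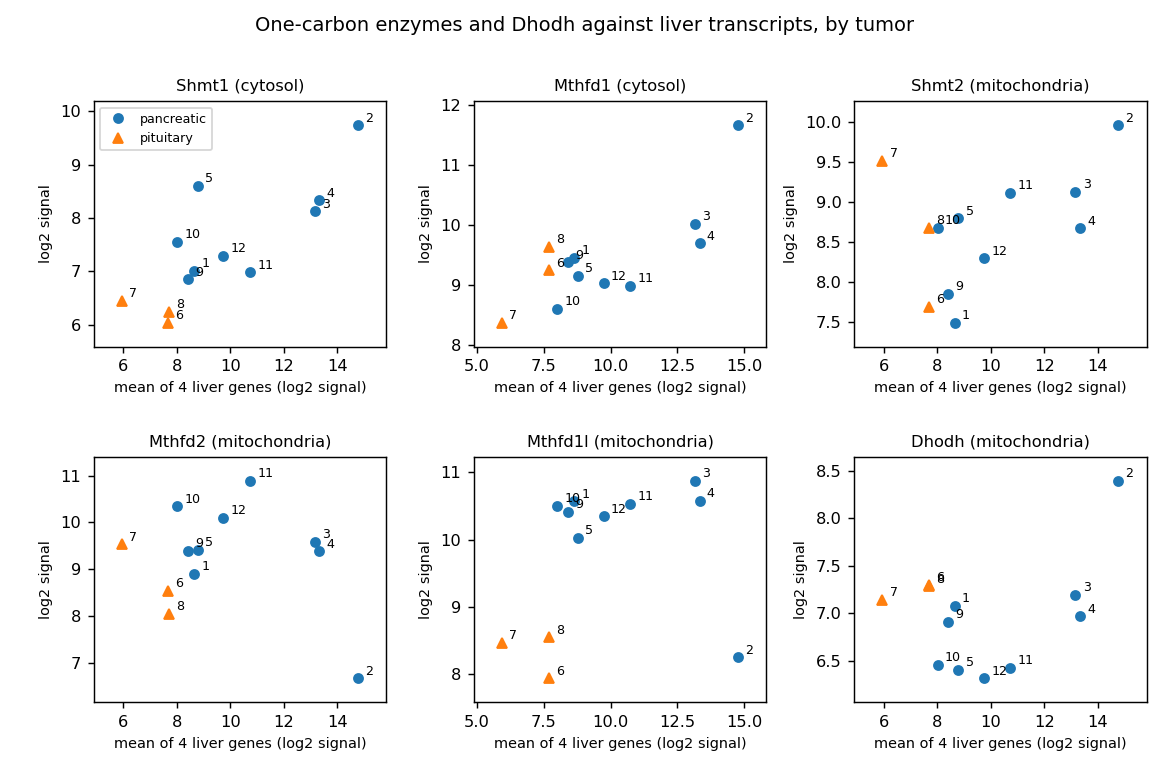
Log2 signal of 5 folate enzymes and Dhodh (y axes) against the mean log2 signal of 4 liver genes (x axes), with 1 numbered point per tumor, pancreatic tumors as circles and pituitary tumors as triangles. Tumor 2, at a liver mean of 14.77, is highest for Shmt1, Mthfd1, Shmt2 and Dhodh and lowest among pancreatic tumors for Mthfd2 and Mthfd1l.

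The 3 enzymes that make serine from a glycolytic intermediate all had lower means in pancreatic tumors, and none passed the test at the probe set used. Phgdh, the first enzyme of the branch, had 8.07 to 10.01 (median 8.96) in pancreatic tumors, against 10.42, 10.82 and 10.08 in pituitary tumors. Every pancreatic tumor was below every pituitary tumor, by a mean of 1.36 (difference -1.36, SE 0.40, adjusted p = 0.0793). Phgdh has 4 probe sets, of which the one used is of the class that can take up related transcripts, and the other 3 gave -0.79, -0.37 and 0.74, none of them called.

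Psph, which releases serine in the last step, had 6.45 to 8.41 (median 7.58) in pancreatic tumors, against 8.68, 9.30 and 8.48 in pituitary tumors. The groups did not overlap here either (difference -1.22, SE 0.39, adjusted p = 0.102). Psat1, the transaminase between them, had 7.09 to 10.25 (median 8.78) in pancreatic tumors, against 10.10, 9.58 and 9.74 in pituitary tumors. Only tumor 3, at 10.25, was above the pituitary tumors, and the difference was -1.24 (SE 0.55, adjusted p = 0.246). The second Psat1 probe set gave -1.74 with no overlap (SE 0.45, adjusted p = 0.046), and this call was lost on leaving out any of 10 of the 12 tumors. Over all 79 probe sets of the members, 2 were called higher and 2 lower, against 1.18% and 3.45% of the 45037 probe sets. The glial mean was 11.26 and 11.02 in pituitary tumors 6 and 8 and 7.40 in tumor 7. Of the pituitary tumors, tumor 7 had the highest Phgdh and Psph and the lowest Psat1. The part of glial RNA in these differences was not tested.

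**Figure D4:**
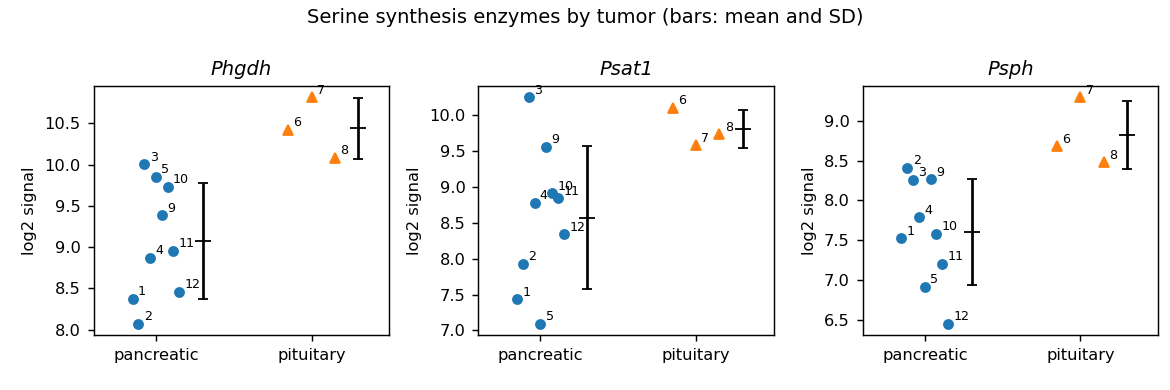
Log2 signal (y axes) of the 3 serine synthesis enzymes, with 1 numbered point per tumor, pancreatic tumors left of pituitary tumors, and bars for the group means with their SD (9 and 3 tumors). The groups do not overlap for Phgdh and Psph, and pancreatic tumor 3, at 10.25, exceeds the pituitary tumors for Psat1.

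Polyamine synthesis was read at 2 of its 4 genes. Odc1, which makes putrescine from ornithine, had 11.01 to 12.05 (median 11.80) in pancreatic tumors, against 12.42, 13.03 and 11.42 in pituitary tumors. Its difference was -0.62 (SE 0.31, adjusted p = 0.302), and all 3 of its probe sets were negative (-0.60 to -0.98) with none called. Srm, which adds the aminopropyl group that turns putrescine into spermidine, had 10.12 to 12.10 (median 11.24), against 10.56, 11.00 and 9.76 in pituitary tumors (0.74, SE 0.36, adjusted p = 0.292). The means of the 2 enzymes thus lay in opposite directions, with neither past the threshold.

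The nucleoside transporter Slc29a1 had 6.11 to 8.68 (median 7.84) in pancreatic tumors, against 6.21, 6.89 and 6.09 in pituitary tumors. Only pancreatic tumor 5 fell among the pituitary values, and the difference of 1.43 (SE 0.47, adjusted p = 0.114) was past the threshold without that tumor (1.64, 0.0195). Over all fits with 1 tumor left out, the difference was 1.27 to 1.67 and its limma adjusted p 0.0195 to 0.388. Its relative Slc29a2, near the array median in all tumors, differed by 0.06 (SE 0.17).

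Other genes of the same pathways were read from a list of 89, of which 82 had a probe set. Of these 4 were called higher in pancreatic tumors and 1 lower, against the same 1.63% and 4.29% of all genes. Arg1, the arginase that makes ornithine, the substrate of Odc1, had 9.46 to 13.50 (median 11.20) in pancreatic tumors, against 5.29, 5.25 and 5.39 in pituitary tumors. The gap between the groups was over 4 log2 units in the nearest tumors, and all 3 pituitary values were at or below the array median. The difference was 5.78 (SE 0.68, adjusted p = 3.74e-04). Arg1 was highest in tumor 2 (13.50), the tumor with the highest liver mean. In tumors 9 and 10, which had the lowest liver means, it was 10.19 and 9.81. With 1 pancreatic tumor left out, the difference ran from 5.48 (without tumor 2) to 5.98 (without tumor 5, liver mean 8.78). It was 5.82 without tumor 3 (13.17), 5.75 without tumor 4 (13.33) and 5.67 without tumor 11 (10.73). Without tumors 2, 3 and 4 the difference was 5.40. The part of liver RNA in this difference was not tested.

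Upb1, which completes the breakdown of uracil and thymine, had 9.48 to 12.23 (median 10.73) in pancreatic tumors, against 6.35, 7.34 and 5.26 in pituitary tumors (4.52, SE 0.55, adjusted p = 4.80e-04). Arg1 and Upb1 stayed called with any 1 tumor left out and without tumors 2, 3 and 4. Without pituitary tumors 6 and 8 together the adjusted p was 0.0474 for Arg1 and 0.0962 for Upb1. Nt5c3, a nucleotidase of pyrimidine monophosphates, differed by 1.22 (SE 0.26, adjusted p = 0.0232), and Aprt, which salvages adenine, by 0.81 (SE 0.19, adjusted p = 0.0334). Eif5a2, whose protein family carries hypusine made from spermidine, was lower at -2.46 (SE 0.59, adjusted p = 0.0346), with 4.56 to 8.15 in pancreatic tumors, against 9.24, 8.84 and 9.23. These 3 calls were lost without pituitary tumor 6 (adjusted p of 0.127 to 0.177) or 8 (0.0975 to 0.150), and among other single tumors for Aprt without pancreatic tumor 3, 4, 10 or 12 and for Eif5a2 without pituitary tumor 7 or pancreatic tumor 10, 11 or 12. Without pancreatic tumors 10, 11 and 12 together all 3 calls were lost (0.109 for Aprt, 0.115 for Nt5c3 and 0.151 for Eif5a2), and Aprt was also lost without 2, 3 and 4 (0.0930), with a trended and robust variance (0.0520) and with the mean of all its probe sets (0.0521). The Eif5a2 call was lost in an unmoderated test (0.0695). With the mean of all probe sets Nt5c3 differed by 0.61 (0.0393) and Eif5a2 by -1.60 (0.0135), both still called. In tumors 2, 3 and 4 the urate oxidase Uox (13.57, 10.49 and 10.78, against 5.40 to 6.90 in the other 6 pancreatic tumors) and the methyl transfer genes Bhmt (14.42, 11.20 and 11.75, against 3.39 to 4.46) and Mat1a (12.68, 8.72 and 9.34, against 4.19 to 6.23) were high, as the liver genes were.

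Among the 9 pancreatic tumors, the members varied more than most genes. Their median SD was 0.65, against 0.43 over all genes, and 24 of 34 lay above the median gene. Without tumor 2 the medians were 0.55 and 0.38, and 22 members exceeded the median gene. These comparisons were not matched for signal. Of the members 91.2% exceeded the array median in all 12 tumors, against 52.2% of all genes, and the part of signal in the SD was not tested. The SD of Mthfd1l was 0.24 without tumor 2 and 0.78 with it, and that of Mthfd2 was 0.64 without it and 1.19 with it. Psat1 did not depend on tumor 2 in this way (1.04 without and 1.00 with it). Tumors 2 and 3 each held the highest value of 11 members (32.4%), where they held that of 22.6% and 10.9% of all genes, and tumor 5 held the lowest value of 14 (41.2%), where it held that of 21.6%. The acinar mean was 11.07 in tumor 3, the highest of the 9, and its part in these values was not tested.

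This variation was read against Mki67, the gene of the proliferation marker Ki-67, which had 6.76 (tumor 10) to 9.49 (tumor 3) in pancreatic tumors, against 8.28, 7.54 and 8.16 in pituitary tumors. Over the 9 pancreatic tumors, 28 of 34 members (82.4%) had a positive Pearson's r with Mki67, against 57.1% of 18192 genes, and the median r was 0.32 over the members and 0.085 over the genes. A positive r with an unadjusted p under 0.05 in a two-sided exact permutation test was found in 3 members (8.82%) and in 4.27% of genes. Adjusted after Benjamini-Hochberg over all 18192 genes, 0 members passed, by r or by rank. By rank 5 members had an unadjusted p under 0.05 with a positive sign (14.7%, against 6.89% of genes), and 4 had a Spearman's rho of 0.9 or more (11.8%, against 1.09% of genes). The limit of 0.9 was not part of the planned tests and lies at the value of Rrm1 (0.900). The share at this limit is therefore a description and no support.

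Rrm1 had r = 0.812 (exact permutation p = 0.00343, adjusted 0.405) and Spearman's rho of 0.900 (exact p = 0.00203, adjusted 0.165). For Rrm2 r was 0.809 (exact permutation p = 0.00521, adjusted 0.478) and rho 0.933 (exact p = 7.50e-04, adjusted 0.129). For Tk1 r was 0.662 (exact permutation p = 0.0678, adjusted 0.794) and rho 0.967 (exact p = 1.65e-04, adjusted 0.109), and the point of tumor 2 lay far above the others. The purine enzyme Adsl had r = 0.738 (exact permutation p = 0.0198, adjusted 0.661) and rho of 0.917 (exact p = 0.00131, adjusted 0.146). Each of these 4 relations was positive in both smaller sets of tumors: without tumors 3 and 10, the farthest from the median of Mki67, r was 0.884 for Rrm1, 0.918 for Rrm2, 0.818 for Tk1 and 0.958 for Adsl (7 tumors), and without tumors 10, 11 and 12 it was 0.965, 0.887, 0.852 and 0.958 for the same genes (6 tumors). Both smaller sets are parts of the same 9 tumors and give no separate support. Tumors 10, 11 and 12 alone are too few for a value.

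**Figure D5:**
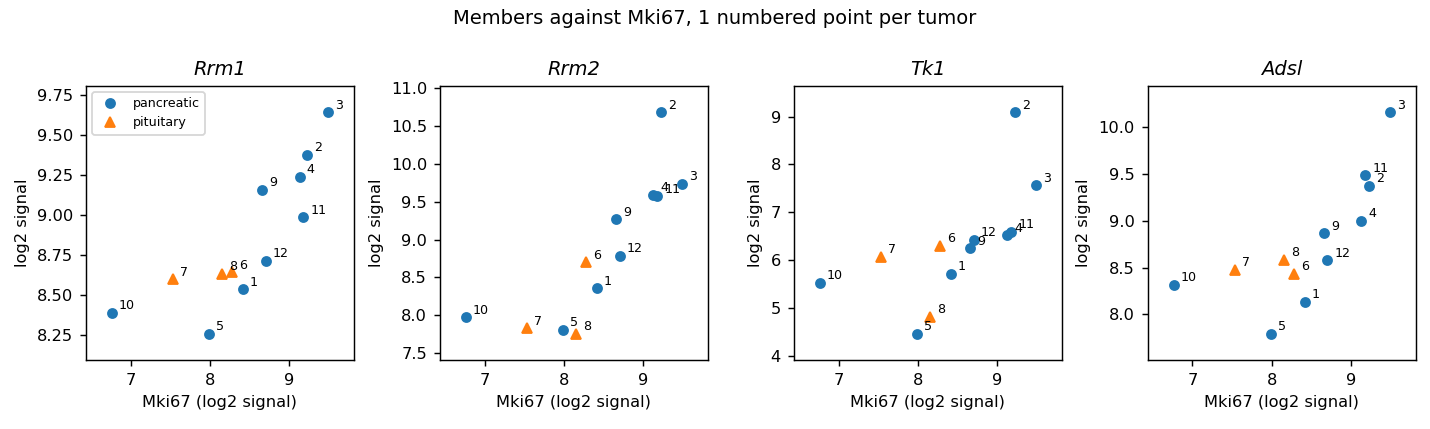
Log2 signal of Rrm1, Rrm2, Tk1 and Adsl (y axes) against that of Mki67 (x axes), with 1 numbered point per tumor, pancreatic tumors as circles and pituitary tumors as triangles. Among the 9 pancreatic tumors the rank correlation is 0.900 to 0.967, and tumor 2 stands above the rest for Tk1 (9.09) and Rrm2 (10.68).

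As for all other members, no relation of the serine and mitochondrial folate enzymes passed the adjusted test. The serine enzymes had r of -0.335 (Phgdh), 0.282 (Psat1) and 0.302 (Psph). The mitochondrial enzymes Mthfd2, Mthfd1l and Shmt2 had -0.284, -0.139 and 0.308. The adjusted exact permutation p of these relations was 0.848 to 0.932. Without tumor 2 r was -0.102 for Mthfd2, 0.431 for Mthfd1l and 0.178 for Shmt2. Over the 9 pancreatic tumors the mean of 4 proliferation genes was 6.53 to 9.04, against 7.11 to 7.59 in pituitary tumors, a range that lies within the pancreatic one.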

How the data were processed

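RNA of 9 pancreatic and 3 pituitary tumors was hybridized to Affymetrix MG-430_2.0 arrays, 1 per tumor. The authors deposited a table of log2 signals that had been normalized across the arrays. Their methods name Partek Genomics Suite, and RMA for a further step, without saying which of these gave the table. They were used with no further normalization. Of 45101 probe sets, 64 controls were left out. In the platform annotation 34945 of the rest carry 1 gene symbol, 932 several and 9160 none. Sites were compared by limma (lmFit, eBayes; version 3.58.1, R 4.3.3), adjusted over all 45037 probe sets. Correlations used exact permutation of pairings (scipy 1.17.1), adjusted over 18192 genes, and over the 34 members in the counts under other settings. The test was checked on simulated data. The members, lists and tests were chosen with earlier results of these data known. All 37 members could be named with their values, and of the other pathway genes those called or up to 4 per list with the largest difference. Other settings tried were median centring, quantile normalization, array weights, other variance estimates, a filter on dim probe sets, other choices of probe set, a log2 difference over 1, and leaving out tumors singly or in groups. Arrays of normal pancreas and neuroblastoma were not analysed here.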

Additional observations from a re-analysis of the deposited data

Results flagged for a closer look

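In 6 of 34 members (17.6%) 1 pancreatic tumor lay far from the other 8 by Dixon's test at the 5% level, where this held for 16.2% of all genes and chance alone flags about 1 in 20 groups. Tumor 2 was the one in 4 members (11.8%), against 9.33% of all genes: it was highest for Dhodh (8.40, next value 7.20) and Mthfd1 (11.66, next 10.01) and lowest for Mthfd2 (6.67, next 8.91) and Mthfd1l (8.25, next 10.03). Tumor 5 was lowest for Gmps (8.49, next 9.61). Tumor 3 was highest for the folate carrier Slc19a1 (9.47, next 8.70).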

How the results depend on the processing

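The number of members called higher (2) was 3 with quantile normalization and with the mean of all probe sets (Dut added), 5 with array weights (Dut, Shmt1 and Slc29a1 added), 1 with an unmoderated test, 0 to 4 with 1 tumor left out, 0 without pancreatic tumors 10, 11 and 12, 1 without 2, 3 and 4, and 0 without pituitary tumors 6 and 8. Members called lower (0) were 1 with array weights (Phgdh). Other pathway genes called higher (4) were 7 with array weights, 2 without pancreatic tumors 10, 11 and 12, 1 without pituitary tumors 6 and 8 and 2 to 4 with 1 tumor left out. Those called lower (1) were 2 with array weights, 0 with an unmoderated test, without 10, 11 and 12 or without 6 and 8, and 0 to 2 with 1 tumor left out. Members correlated with Mki67 (0 by Pearson's p adjusted over the relations of each setting) were 2 without tumors 10, 11 and 12, 1 without the 2 farthest tumors and 0 to 4 with 1 tumor left out, the 4 without tumor 10. The median difference of the members (0.20) was 0.05 to 0.37 with 1 tumor left out and -0.12 without pituitary tumors 6 and 8, where 1 pituitary tumor is left. Fewer samples enter the fits that leave out tumors, and the cause of the other changes was not tested.

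Of 34 members, 18 kept the sign of their difference in all 23 settings, and the signs that turned were of uncalled differences. Array weights turned Prps2 (0.19), Pfas (0.17) and Tyms (-0.052), and quantile normalization turned Tyms (-0.017). The mean of all probe sets turned Cad (0.16), Prps2 (0.25), Gart (-0.13), Gmps (-1.03), Nme1 (0.031) and Slc29a2 (-0.17). Without pancreatic tumors 10, 11 and 12 the turned values were Prps2 (0.094), Paics (0.13), Impdh1 (-0.13), Tyms (-0.011) and Slc29a2 (-0.035), and without 2, 3 and 4 they were Ppat (-0.30), Shmt2 (-0.26) and Slc19a1 (-0.040). Without pituitary tumors 6 and 8 they were Ctps (-0.23), Ppat (-0.62), Gart (-0.46), Atic (-0.53), Impdh1 (-0.26), Gmps (-0.43), Tyms (-0.12), Shmt2 (-0.85), Mthfd2 (-0.12) and Slc19a1 (-0.094). With 1 tumor left out, Ppat ranged from -0.24 to 0.32, Shmt2 from -0.43 to 0.48, Tyms from -0.052 to 0.083, Gart from -0.0027 to 0.54, Atic from -0.23 to 0.52, Prps2 from -0.28 to 0.064 and Pfas from -0.39 to 0.017. No paired analysis was possible because which arrays share a mouse is not stated.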
